A study of Mus musculus with 7 samples.

Results

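The JAK-STAT core of the cytokine response was described in CD8 T cells with and without ACLY through 10 genes: the kinases Jak1 and Jak3, the transcription factors Stat3, Stat4, Stat5a and Stat5b, and the feedback inhibitors Socs1, Socs2, Socs3 and Cish. They were chosen by symbol, and each matched exactly 1 of the 16156 genes in the deposited tables. The labels describe the cells as congenically marked OT-I CD8 T cells, which carry a transgenic receptor for an ovalbumin peptide. ACLY KO or WT cells were moved into C57Bl/6 mice 1 day ahead of infection with Listeria monocytogenes carrying ovalbumin. They were recovered 6 days after infection for RNA sequencing, with 3 ACLY KO and 4 WT libraries. ACLY, ATP citrate lyase, makes acetyl-CoA from citrate in the cytosol. The labels give the strain as C57Bl/6 for both genotypes. How Acly was deleted, how old the animals were and whether each library had its own mouse are not stated there, so p-values measure only the spread between these libraries.

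Cytokines such as IL-2, IL-7, IL-12 and IL-15 bind receptors whose chains carry JAK kinases. JAK1 sits on many of these receptors, and JAK3 pairs only with the common gamma chain. The kinases phosphorylate STAT proteins, which then enter the nucleus and switch on target genes: STAT5A and STAT5B act downstream of IL-2, IL-7 and IL-15, STAT4 downstream of IL-12, and STAT3 downstream of IL-6, IL-10 and IL-21. Among the targets are the SOCS genes and Cish, whose products block receptors, kinases or STAT docking, so that their transcripts are commonly read as a trace of recent cytokine signals. In CD8 T cells IL-2 and IL-12 are known to favour effector cells, and SOCS1 is known to restrain the responses to IL-15 and interferon gamma.

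Several features of the whole series bear on every value given here. Gene counts summed to 37473484 to 39692359 in the KO libraries and to 45288353 to 75586011 in the WT libraries. Acly itself stood at 262, 62.0 and 209 CPM (a count divided by the scaled library size) in KO replicates 1 to 3, against 393, 339, 414 and 276 CPM in WT replicates 1 to 4. The KO libraries lay below the WT libraries, but transcript remained in each. The log2 difference of Acly (KO minus WT) was -1.0 (95% interval -2.04 to 0.03, edgeR adjusted p = 0.278). It did not pass the test described below. The segments Trbv12-1 and Trbv12-2, of the V beta family used by the OT-I receptor, took 46.7%, 23.2% and 61.8% of the V beta counts in KO replicates 1 to 3, against 99.0%, 99.2%, 99.0% and 84.5% in WT replicates 1 to 4. These shares go against the OT-I label of the KO libraries, which hold V beta transcripts of other receptors as well. The 7 T cell markers (CD3 chains, CD8 chains, Cd2 and Thy1) were detected in every library and summed to 2349, 5704 and 5624 CPM in KO replicates 1 to 3, against 5324 to 7108 CPM in WT. The 8 B cell markers summed to 5278, 168 and 81.5 CPM in KO replicates 1 to 3 and 11.7 to 19.7 CPM in WT, and the 8 myeloid markers to 1085, 48.1 and 506 CPM and 35.8 to 52.1 CPM. The 4 red cell markers summed to 19252, 2746 and 95.9 CPM in KO and 0.499 to 178 CPM in WT, and the 3 CD4 T cell markers to 9.22 to 186 CPM in KO and 9.29 to 34.1 CPM in WT, where Cd4 itself stood at 0 in WT replicates 1 and 3. WT replicate 4 stood apart from the other WT libraries with 2167 CPM over 8 cell cycle genes, against 272 to 309 CPM. In bulk RNA, fewer cells of a type and less RNA per cell cannot be told apart.

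In the KO libraries the mean of each feedback inhibitor was higher than in WT, by 3.07-fold for Socs3 and 2.3-fold for Socs1, while Stat3, Stat5a, Stat5b and Jak3 had means within 1.04-fold of WT. No gene of the 10 passed the test across all genes. All 4 inhibitors had a log2 difference (KO minus WT) above 0, with a median of 1.28. The median was -0.00 for the 4 STAT genes and -0.21 for the 2 kinases, beside a median of -3.62e-05 over all 16156 genes tested. Of the 10 genes 6 were above 0 and 4 below, as were 50% and 50% of all genes. The test was edgeR's quasi-likelihood test with Benjamini-Hochberg adjustment over all genes and a threshold of 0.05. It called 0 of the 10 genes and 0% of all genes. At an unadjusted p under 0.05 edgeR counted 3 of the 10 as higher (Socs1, Socs2 and Socs3) and 0 as lower, against 11% and 7.89% of all genes. DESeq2 called Socs1 and Socs3 higher and none lower, beside 6.81% and 3.43% of all genes, and limma voom with quality weights called the same 2, beside 5.32% and 1.68%. For Socs1 and Socs3 every KO library lay above every WT library, which held for 9.46% of all genes. None of the 10 lay wholly below, which held for 9.03%.

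**Figure D1:**
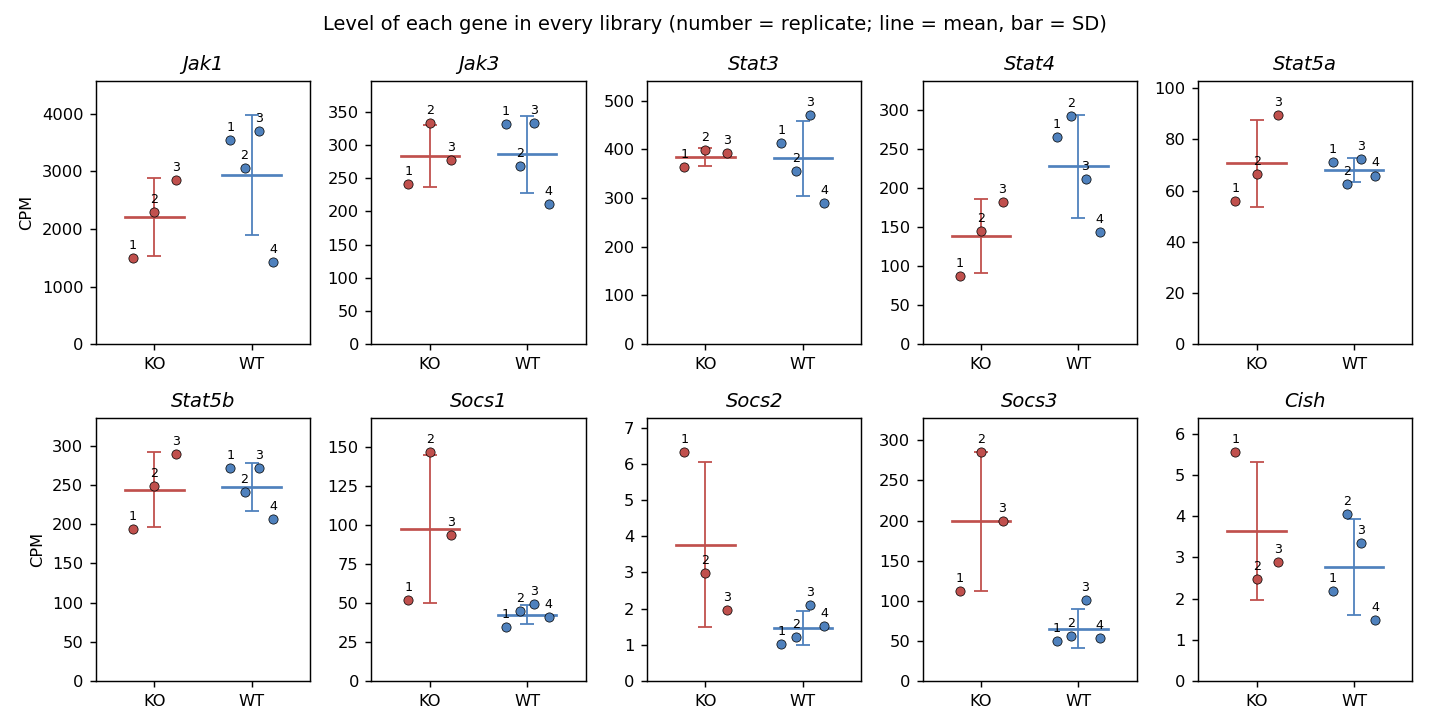
Level of each of the 10 genes in CPM (vertical axes, each starting at 0) in the 3 KO libraries (red, left) and the 4 WT libraries (blue, right); numbers mark the replicates, lines the means and bars the SD. Socs1 and Socs3 do not overlap between the genotypes, and their highest points are 147 and 285 CPM in KO replicate 2.

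The sequence just before the start of Socs1 and of Socs3 is shown because these are the 2 genes whose libraries did not overlap, and because STAT proteins act on their targets through short elements in such regions. The windows are the 250 bases before the RefSeq start on GRCm38, the mm10 build, written 5′ to 3′ on the minus strand of both genes. For Socs3 the bases nearest the start, which an alternative GENCODE transcript counts as exon, are left off. The Socs1 stretch is chr16:10785537-10785786 and the Socs3 stretch is chr11:117969452-117969616. Capitals mark matches to TTCNNNGAA, the core of a STAT element, or to a pair of GAAA words set 2 bases apart, the core of an interferon-stimulated response element and searched after the sequence was seen. Both strands were searched, and the first motif reads alike on both.
Socs1: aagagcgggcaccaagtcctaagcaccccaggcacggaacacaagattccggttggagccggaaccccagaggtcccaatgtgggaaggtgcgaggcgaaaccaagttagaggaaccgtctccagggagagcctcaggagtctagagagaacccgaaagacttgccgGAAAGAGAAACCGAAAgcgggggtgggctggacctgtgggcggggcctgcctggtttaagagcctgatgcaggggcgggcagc
Socs3: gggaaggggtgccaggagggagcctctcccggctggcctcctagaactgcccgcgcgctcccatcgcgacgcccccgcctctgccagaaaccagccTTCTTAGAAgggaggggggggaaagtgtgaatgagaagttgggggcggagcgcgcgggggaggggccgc
The Socs3 window held 1 match to the STAT core, TTCTTAGAA, which begins 154 bases before the start. The Socs1 window held 2 matches to the interferon core, GAAAGAGAAA and GAAACCGAAA, which begin 83 and 77 bases before the start and overlap each other. Of 32851 promoter windows of the same length, 7.02% held the STAT core, 2.98% held the interferon core and 0.18% held 2 or more interferon cores. RefSeq windows were at hand for 9 of the 10 genes (all but Socs2), 12 windows in all. Apart from these matches only an alternative start of Stat4 held one, GAAAGTGAAA. A match describes letters and is not a measured binding site.

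Socs3, an inhibitor that blocks signalling by the IL-6 family receptor chain gp130 and by IL-12 (ENSMUSG00000053113, minus strand of chromosome 11, 117966079 to 117970047), had the larger difference of the 2 genes without overlap. It stood at 112, 285 and 200.0 CPM in KO replicates 1 to 3, against 49.4, 55.5, 101 and 53.5 CPM in WT replicates 1 to 4. KO replicate 2 was the highest library, and KO replicate 1 lay just above WT replicate 3. KO libraries averaged 199 ± 86.4 CPM (SD, n = 3) and WT libraries 64.7 ± 24.0 CPM (SD, n = 4), a 3.07-fold difference (log2 1.62 ± 0.364, SE; 95% interval 0.77 to 2.47). It did not pass edgeR (adjusted p = 0.0845), whereas DESeq2 and limma voom gave adjusted p = 0.000565 and 0.0436. Over the alternatives the log2 difference stayed between 1.27 and 1.91, with adjusted p from 0.000565 to 0.259.

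Socs1, an inhibitor of JAK1, JAK2 and TYK2 that dampens interferon and common gamma chain signals (ENSMUSG00000038037, minus strand of chromosome 16, 10782240 to 10785536), showed the same order of libraries. It stood at 52.0, 147 and 94.0 CPM in KO replicates 1 to 3, against 34.7, 44.9, 49.6 and 41.1 CPM in WT replicates 1 to 4. The gap between the genotypes was narrow, with 52.0 CPM in KO replicate 1 next to 49.6 CPM in WT replicate 3. KO libraries averaged 97.8 ± 47.8 CPM (SD, n = 3) and WT libraries 42.6 ± 6.3 CPM (SD, n = 4), a 2.3-fold difference (log2 1.2 ± 0.322, SE; 95% interval 0.45 to 1.95). edgeR gave an adjusted p of 0.12, DESeq2 0.00904 and limma voom 0.0409. Without KO replicate 1 edgeR called Socs1 higher (log2 1.5, adjusted p = 0.045), beside 111 of all 16156 genes higher and 48 lower. Without KO replicate 2 the log2 difference of Socs1 was 0.78 (edgeR adjusted p = 0.237).

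Markers of other cells and the receptor share moved between the genotypes beside both genes. KO replicate 2, with the highest Socs1 and Socs3, had the lowest V beta share (23.2%), 168 CPM of B cell markers and 48.1 CPM of myeloid markers. KO replicate 1, with the lowest Socs1 and Socs3 of the KO libraries, had the highest B cell, myeloid and red cell sums. Without KO replicate 1 the log2 differences were 1.5 for Socs1 and 1.90 for Socs3. With each library left out in turn they ran from 0.78 to 1.5 for Socs1 and from 1.27 to 1.91 for Socs3. The 0.78 came without KO replicate 2. Without both KO replicate 1 and WT replicate 4 edgeR called both genes higher (Socs1 log2 1.5, adjusted p = 0.0271; Socs3 log2 1.84, adjusted p = 0.0329). That fit called 864 of all 16156 genes higher and 668 lower, so the calls are not particular to these genes. The part of the lower V beta share and of the marker sums in the Socs1 and Socs3 differences was not tested.

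Set against the summed T cell markers of the same library, a ratio chosen after the data were seen, both genes kept apart from WT. The marker sum was lower in KO on average, but only KO replicate 1 (2349 CPM) lay below the WT range of 5324 to 7108 CPM. KO replicates 2 and 3 stood at 5704 and 5624 CPM. This scaling alone adds 0.55 to every gene's difference of mean log2 CPM. A wider gap on it therefore says nothing about Socs1 or Socs3 in particular. Socs3 stood at 47.6, 49.9 and 35.6 CPM per 1000 CPM of T cell markers in KO replicates 1 to 3, against 6.94, 9.02, 16.1 and 10.1 in WT replicates 1 to 4. Socs1 stood at 22.1, 25.8 and 16.7 in KO and at 4.88, 7.3, 7.93 and 7.72 in WT on the same scale. The KO libraries lay apart from the WT libraries for both ratios, and the lowest of them was KO replicate 3. The inhibitors together took 6.73%, 11.2% and 6.83% of the summed CPM of the 10 genes in KO replicates 1 to 3, against 1.75%, 2.41%, 2.99% and 4.0% in WT replicates 1 to 4.

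Socs2 and Cish were scarce transcripts. Socs2, an inhibitor best known for limiting growth hormone signals (ENSMUSG00000020027, minus strand of chromosome 10, 95385362 to 95417180), stood at 6.33, 2.98 and 1.97 CPM in KO replicates 1 to 3, against 1.02, 1.21, 2.11 and 1.51 CPM in WT replicates 1 to 4. KO replicate 3 lay below WT replicate 3, so the groups overlapped. The log2 difference was 1.36 ± 0.504 (SE; edgeR adjusted p = 0.208), from counts of 77 to 237 in KO and 54 to 110 in WT. Its highest library was KO replicate 1, which also held the most B cell, myeloid and red cell transcripts, and without it the log2 difference was 0.76 (edgeR adjusted p = 0.404).

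Cish, which encodes an SH2 protein that competes for STAT5 docking sites and restrains T cell receptor signals (ENSMUSG00000032578, plus strand of chromosome 9, 107296026 to 107302784), stood at 5.56, 2.47 and 2.89 CPM in KO replicates 1 to 3, against 2.18, 4.06, 3.36 and 1.48 CPM in WT replicates 1 to 4. Only KO replicate 1 lay above all WT libraries. The log2 difference was 0.39 ± 0.486 (SE; 95% interval -0.74 to 1.53; edgeR adjusted p = 0.721), and it was -0.05 without KO replicate 1. Among the 4 inhibitors KO replicate 2 was thus highest for Socs1 and Socs3, and KO replicate 1 for Socs2 and Cish.

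**Figure D2:**
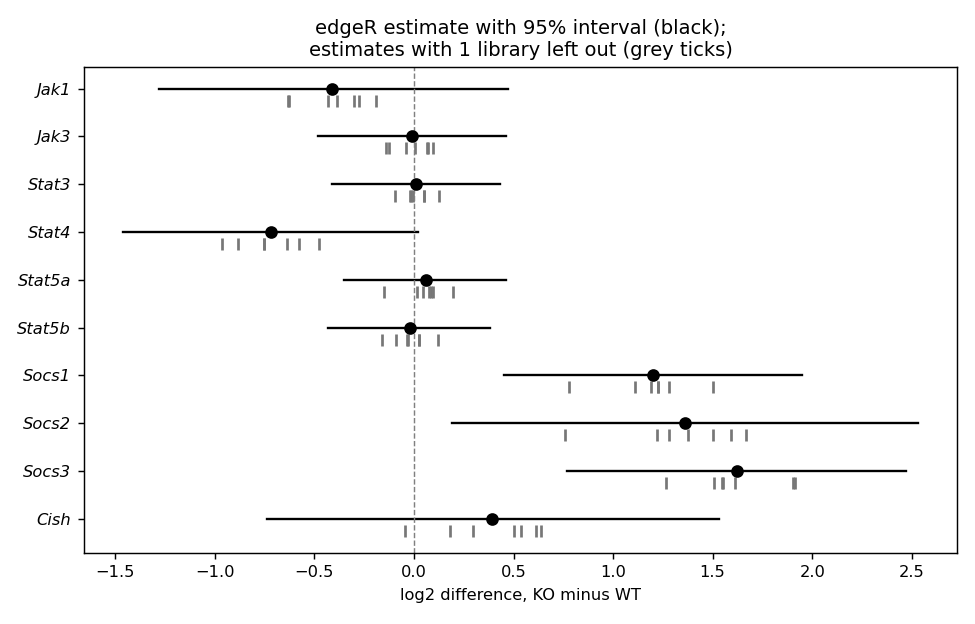
Log2 difference of KO minus WT for each of the 10 genes (horizontal axis), with edgeR's estimate and its 95% interval in black and the 7 estimates with 1 library left out as grey ticks. The intervals of Socs1, Socs2 and Socs3 lie above 0, that of Stat4 reaches 0.02, and the other intervals span 0.

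Among the STAT genes, Stat4 stood lower in KO and the other 3 differed little in mean. Stat4, the factor activated by IL-12 (ENSMUSG00000062939, plus strand of chromosome 1, 51987148 to 52107189), stood at 87.5, 145 and 182 CPM in KO replicates 1 to 3, against 265, 292, 211 and 143 CPM in WT replicates 1 to 4. The groups overlapped through WT replicate 4, which lay below KO replicates 2 and 3. KO libraries averaged 138 ± 47.6 CPM (SD, n = 3) and WT libraries 227 ± 65.7 CPM (SD, n = 4; log2 -0.72 ± 0.317, SE; 95% interval -1.46 to 0.02; edgeR adjusted p = 0.279). When KO replicate 1, the library with the lowest T cell marker sum, was left out, the log2 difference was -0.48. Stat4 shares 1033 exon bases with the model Gm28177 on the same strand, so its level is uncertain.

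Stat3, which carries IL-6, IL-10 and IL-21 signals (ENSMUSG00000004040, minus strand of chromosome 11, 100885098 to 100939540), stood at 364, 398 and 392 CPM in KO replicates 1 to 3, against 413, 355, 469.8 and 289.6 CPM in WT replicates 1 to 4. The KO values all lay inside the WT range. The log2 difference was 0.01 ± 0.179 (SE; 95% interval -0.41 to 0.43; edgeR adjusted p = 0.982). Stat3 and Stat5a share 72 exon bases on opposite strands.

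Stat5a and Stat5b, closely related factors downstream of IL-2, IL-7 and IL-15, are neighbours on chromosome 11. Stat5b (ENSMUSG00000020919, minus strand, 100780731 to 100850724) stood at 194, 249 and 289 CPM in KO replicates 1 to 3, against 271, 241, 271 and 207 CPM in WT replicates 1 to 4. Stat5a (ENSMUSG00000004043, plus strand, 100859351 to 100885169) stood at 56.1, 66.4 and 89.4 CPM in KO, against 71.1, 62.4, 72.4 and 65.9 CPM in WT. In both genes KO replicate 1 lay below and KO replicate 3 above every WT library. The log2 differences were -0.02 ± 0.174 for Stat5b (SE; 95% interval -0.43 to 0.38; edgeR adjusted p = 0.963) and 0.06 ± 0.174 for Stat5a (SE; 95% interval -0.35 to 0.46; edgeR adjusted p = 0.9). Stat5b was the major form: it made up 80.6% to 82.8% of the exon-length corrected Stat5 signal in KO and 80.1% to 83.3% in WT.

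Stat5b, Stat5a and Stat3 lie 253, 331 and 357 kb from Acly itself. Of the 24 other measured genes within 500 kb of Acly, 15 had a log2 difference above 0 and 9 below, with a median of 0.06. edgeR called 0 of them, 4 lay wholly above WT and 1 wholly below, which held for 9.46% and 9.03% of all genes. The 3 STAT genes were among the 24.

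Neither kinase passed the test. JAK1 serves most cytokine receptors of T cells and JAK3 those with the common gamma chain. Jak1 (ENSMUSG00000028530, minus strand of chromosome 4, 101152367 to 101265282) stood at 1492, 2292 and 2847 CPM in KO replicates 1 to 3, against 3542, 3055, 3698 and 1423 CPM in WT replicates 1 to 4. WT replicate 4 was the lowest library of all, next to KO replicate 1, while the other WT libraries lay above all KO libraries. KO libraries averaged 2210.5 ± 681 CPM (SD, n = 3) and WT libraries 2929.5 ± 1041 CPM (SD, n = 4). The log2 difference was -0.41 ± 0.376 (SE; 95% interval -1.28 to 0.47; edgeR adjusted p = 0.622). It was -0.63 without WT replicate 4 and -0.19 without KO replicate 1.

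Jak3 (ENSMUSG00000031805, plus strand of chromosome 8, 71676296 to 71690575) stood at 241, 333 and 277 CPM in KO replicates 1 to 3, against 331, 268, 333 and 211 CPM in WT replicates 1 to 4. The groups overlapped throughout. The log2 difference was -0.01 ± 0.2 (SE; 95% interval -0.48 to 0.46; edgeR adjusted p = 0.984), and its sign turned with median-of-ratios scaling (0.016) and with upper-quartile scaling (0.056). Jak3 shares 404 exon bases with Insl3 on the same strand, so its level is uncertain.

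Per kilobase of annotated exon, the 10 genes ran from Jak1 down to Socs2 in both genotypes. In KO the means were 306 CPM per kb for Jak1, 68.8 for Socs3, 53.0 for Jak3, 44.0 for Stat5b, 40.4 for Stat3, 35.7 for Stat4, 33.6 for Socs1, 9.9 for Stat5a, 0.567 for Cish and 0.395 for Socs2. In WT they were 405 for Jak1, 58.7 for Stat4, 53.4 for Jak3, 44.6 for Stat5b, 40.1 for Stat3, 22.4 for Socs3, 14.6 for Socs1, 9.53 for Stat5a, 0.431 for Cish and 0.154 for Socs2. By its mean Socs3 stood second in KO and sixth in WT. In WT the ranges of Stat4 (36.8 to 75.3), Jak3 (39.5 to 62.3), Stat5b (37.3 to 48.9) and Stat3 (30.4 to 49.3) overlapped, so their order there is within the spread. In KO the range of Socs3 (38.7 to 98.4) overlapped with those of Jak3 (45.1 to 62.3), Stat5b (35 to 52.2), Stat3 (38.2 to 41.7), Stat4 (22.6 to 47.0) and Socs1 (17.9 to 50.7), so its place there is within the spread.

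In every role group, the gene with the widest range over the 7 libraries was compared with 8440 or 8441 other named genes of at least 3 log2 CPM by the root-mean-square difference of centred log2 CPM. Stat4 was closest to Ms4a6b (0.0786), Acss2 (0.128) and Insl6 (0.145), against a median of 0.586. Acss2, whose product turns acetate into acetyl-CoA, stood at 64.5, 123 and 134 CPM in KO replicates 1 to 3, against 203, 206, 189.8 and 98.8 CPM in WT replicates 1 to 4. Jak1 was closest to Adcy3 (0.134), Pitpnm1 (0.134) and Nod1 (0.145), against a median of 0.561. Socs2 was closest to Gadd45a (0.185), Arhgef11 (0.248) and Slc25a39 (0.313), against a median of 0.889. Gadd45a, known as a stress response gene, stood at 35.4, 16.0 and 9.31 CPM in KO and 5.64, 7.09, 9.47 and 6.04 CPM in WT. Within the 10 genes the closest pairs were Jak3 with Stat3 (0.107) and Stat5a with Stat5b (0.112), and Socs1 was closest to Socs3 (0.326). These distances describe 7 libraries and carry no test.

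**Figure D3:**
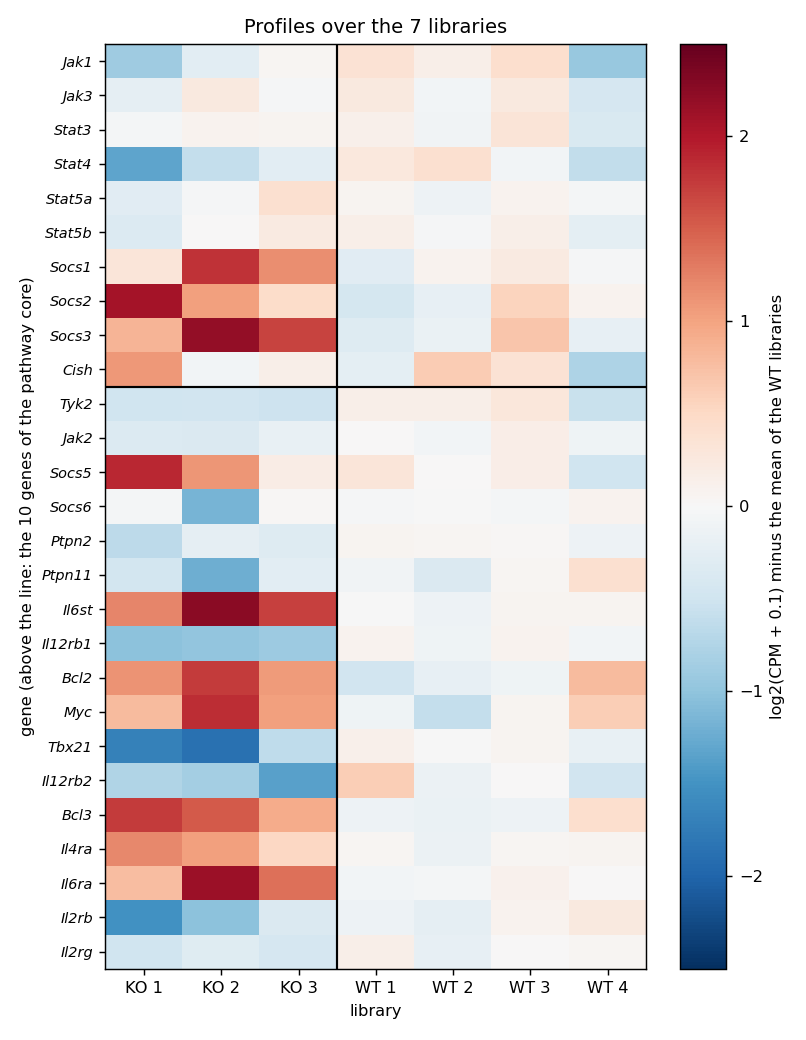
Colour gives log2(CPM + 0.1) minus the mean of the WT libraries, in KO 1 to 3 (left) and WT 1 to 4 (right). The 10 genes are above the line. Below it are the other pathway genes taken by the rule given in the methods, with Il6ra, Il2rb and Il2rg. Il4 and Il12a, near 0 in WT, are left out, and so are the other pathway genes named in the text. Socs1, Socs3, Il6st and Il6ra are darkest in KO 2, where they were at 147, 285, 239.7 and 151 CPM, while Socs2 is darkest in KO 1, at 6.33 CPM.

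The receptors of the pathway lay on both sides of WT. Of 18 measured cytokine receptor genes, 7 had a log2 difference above 0 and 11 below, with a median of -0.20. edgeR called 0 of them, and 4 were higher and 5 lower by an unadjusted p under 0.05. Calls by DESeq2 were 4 higher and 4 lower, and by limma voom 4 and 1. Over all genes 11% were higher and 7.89% lower at that unadjusted p. DESeq2 called 6.81% and 3.43% of all genes, and limma voom 5.32% and 1.68%. The same shares stand beside the counts of the lists below. Il6st, the gp130 chain that signals through JAK1 and STAT3, stood at 117, 239.7 and 163 CPM in KO replicates 1 to 3, against 49.7, 45.8, 52.1 and 52.0 CPM in WT replicates 1 to 4. The genotypes were far apart and KO replicate 2 was again highest (log2 1.79 ± 0.229, SE; adjusted p = 0.0651 in edgeR and 1.36e-09 in DESeq2). edgeR called it higher without KO replicate 1, 2 or 3 or without WT replicate 4 (adjusted p = 0.0361, 0.0296, 0.0446 and 0.0485). Over the fits with 1 library left out edgeR called 0 to 142 of all genes higher and 0 to 48 lower. These ranges stand beside each such call below.

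Il6ra, the ligand-binding chain of the IL-6 receptor and a gene picked with its values in view, stood at 58.3, 151 and 89.5 CPM in KO replicates 1 to 3, against 32.5, 33.0, 37.1 and 34.6 CPM in WT replicates 1 to 4 (log2 1.54 ± 0.29, SE; edgeR adjusted p = 0.067). Il6ra, Il6st, Socs1 and Socs3 shared the order of the KO libraries, with KO replicate 2 first, then 3, then 1, which was also the order of Jak3, Stat3 and the T cell marker sum. Without KO replicate 1, its KO library nearest to WT, edgeR called Il6ra higher (log2 1.81, adjusted p = 0.0414). Il6ra shares 242 exon bases with the model Gm42809 on the opposite strand.

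Of the receptor chains for IL-12 and IL-2, Il12rb1, Il2rb and Il2rg lay below WT in every KO library, although none passed edgeR with all libraries, and Il2ra overlapped with WT. Il12rb1, a chain of the IL-12 receptor, stood at 19.1, 19.6 and 20.7 CPM in KO replicates 1 to 3, against 41.6, 36.3, 41.4 and 37.1 CPM in WT replicates 1 to 4. This was a tight difference without overlap (log2 -0.98 ± 0.147, SE; adjusted p = 0.0651 in edgeR and 4.61e-10 in DESeq2), called lower by edgeR without WT replicate 4 (adjusted p = 0.0459). Il2rb and Il2rg, chains of the IL-2 and IL-15 receptors, and Il2ra were chosen after their values were seen. Il2rb stood at 363, 511 and 804 CPM in KO, against 952, 892, 1108 and 1224 CPM in WT (log2 -0.9 ± 0.282, SE; edgeR adjusted p = 0.155). Il2rg stood at 349, 399 and 369.6 CPM in KO, against 550.1, 427, 496 and 511 CPM in WT (log2 -0.41 ± 0.136, SE; edgeR adjusted p = 0.168). Il2ra, the alpha chain of the IL-2 receptor, stood at 25.7, 8.38 and 6.17 CPM in KO, against 21.4, 21.1, 17.1 and 3.88 CPM in WT, with KO replicate 1 above all WT libraries (log2 -0.24 ± 0.685, SE; edgeR adjusted p = 0.889). The T cell marker sums were 2349, 5704 and 5624 CPM in KO replicates 1 to 3 and 5324 to 7108 CPM in WT. Only KO replicate 1 lay below the WT range. V beta shares of Trbv12-1 and Trbv12-2 were 23.2% to 61.8% in KO and 84.5% to 99.2% in WT. The part of the marker sums and of these shares in the differences was not tested.

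Of the 15 cytokine ligands listed, 7 were in the table, 4 with a log2 difference above 0 and 3 below. edgeR called 0 and, at an unadjusted p under 0.05, counted 2 higher and 0 lower. DESeq2 called 0 and gave no adjusted p for those 2, which limma voom called higher. The 2 were Il4, at 0.321, 0.303 and 0.256 CPM in KO replicates 1 to 3 with counts of 0 or 1 in each WT library, and Il12a, at 21.6, 0.605 and 1.1 CPM in KO with counts of 0 to 3 in WT. Without WT replicate 4 edgeR called Il4 higher (adjusted p = 0.0487). No fold is given, since the WT counts were at or under the floor of 3 counts, which is 0.0397 to 0.0662 CPM before scaling. Il12a, a chain of the IL-12 made mainly by antigen-presenting cells, was highest in KO replicate 1, with 5278 CPM of B cell and 1085 CPM of myeloid markers. Their part in it was not tested.

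Of Jak2, Tyk2, Stat2, Stat6 and Irf9, 1 was above 0 and 4 below. edgeR called 0 and, at an unadjusted p under 0.05, counted 0 higher and 2 lower. Calls by DESeq2 numbered 0, and limma voom called Tyk2 lower. Tyk2, the kinase partner of the IL-12 and type I interferon receptors, stood at 152, 155 and 149.8 CPM in KO replicates 1 to 3, against 238, 239, 261 and 146 CPM in WT replicates 1 to 4. WT replicate 4 alone lay with the KO libraries, so leaving it out widens the gap by itself. Without it edgeR called Tyk2 lower (log2 -0.69, adjusted p = 0.0463). With all libraries the edgeR values were -0.54 and 0.212. Jak2 stood at 181, 179 and 203 CPM in KO, against 233, 219, 259 and 215 CPM in WT (log2 -0.3 ± 0.121, SE; edgeR adjusted p = 0.236).

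Of the 4 other SOCS genes 2 were above 0 and 2 below. edgeR called 0 of them and, at an unadjusted p under 0.05, counted 1 higher. It was the 1 gene that passed in DESeq2, and limma voom called 0. That gene, Socs5, stood at 23.0, 13.3 and 6.99 CPM in KO replicates 1 to 3, against 7.59, 6.17, 6.91 and 4.31 CPM in WT replicates 1 to 4, and it was highest in KO replicate 1, as Socs2 was (log2 1.21 ± 0.425, SE; adjusted p = 0.19 in edgeR and 0.0496 in DESeq2). Socs6, of the same inhibitor family, stood at 22.8, 10.5 and 24.3 CPM in KO, against 23.3, 23.5, 23.0 and 25.1 CPM in WT, with KO replicate 2 low (edgeR adjusted p = 0.643). Of 12 other negative regulators (PIAS proteins, phosphatases and adaptors) 8 were above 0 and 4 below. edgeR called 0 and, at an unadjusted p under 0.05, counted 0 higher and 1 lower. DESeq2 and limma voom called 0. The 1 was Ptpn2, a phosphatase of JAK1, JAK3 and STAT proteins, at 82.8, 111 and 104 CPM in KO replicates 1 to 3, against 136, 134, 132 and 119 CPM in WT replicates 1 to 4. All KO libraries lay below WT (log2 -0.39 ± 0.135, SE; edgeR adjusted p = 0.189). Ptpn11, the phosphatase SHP2, stood at 48.2, 28.2 and 54.7 CPM in KO, against 62.3, 51.3, 68.3 and 86.8 CPM in WT (log2 -0.62 ± 0.27, SE; edgeR adjusted p = 0.272).

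**Figure D4:**
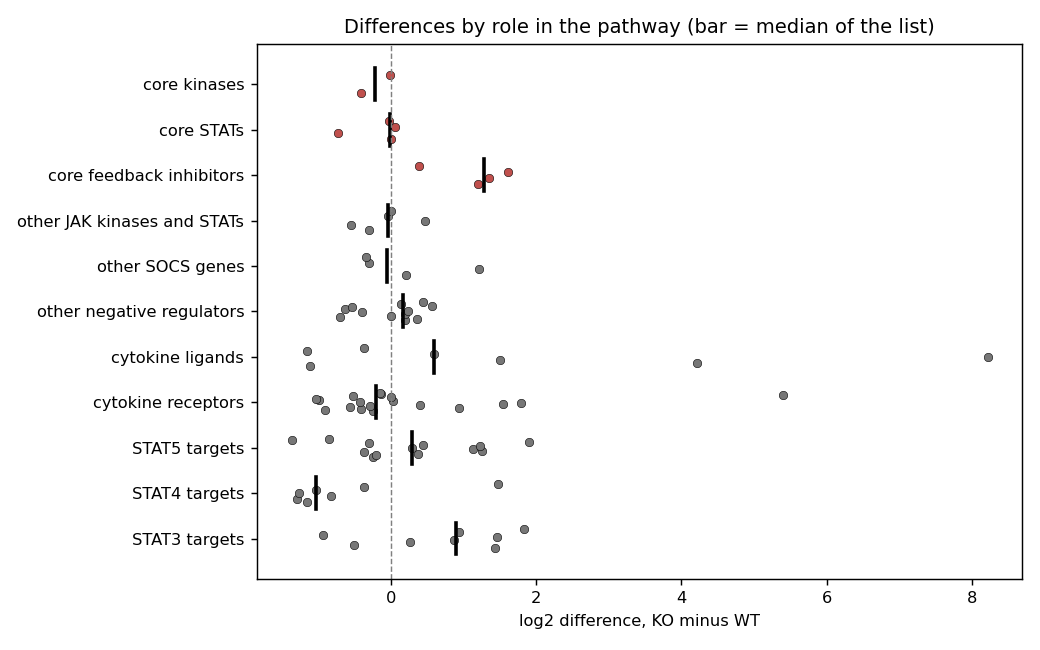
Log2 difference of KO minus WT (horizontal axis) for every measured gene of each list (rows), with the 10 core genes in red, other pathway genes in grey and the median of each list as a black bar. The ligands farthest right, Il12a and Il4, had WT counts of 0 to 3, so their fitted positions depend on the prior count. The medians are 1.28 for the core feedback inhibitors, 0.90 for STAT3 targets and -1.03 for STAT4 targets.

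Known targets of the 3 kinds of STAT were read beside the STAT levels. Of 13 STAT5 targets 7 were above 0 and 6 below, with a median of 0.29. edgeR called 0 and, at an unadjusted p under 0.05, counted 3 higher and 1 lower. Calls by DESeq2, and by limma voom, were also 3 higher and 1 lower. The lower gene was Gzmb each time (log2 -1.36, edgeR adjusted p = 0.147). Bcl2, a survival protein, stood at 188, 289.8 and 179.9 CPM in KO replicates 1 to 3, against 61.7, 75.1, 80.6 and 149.5 CPM in WT replicates 1 to 4. WT replicate 4 was the highest WT library and the nearest to KO, so leaving it out widens the gap by itself. Without it edgeR called Bcl2 higher (log2 1.6, adjusted p = 0.046). With all libraries the edgeR values were 1.26 and 0.111. Myc, the growth regulator, stood at 158, 329.6 and 186 CPM in KO, against 85.3, 60.6, 96.5 and 141 CPM in WT (log2 1.23 ± 0.341, SE; edgeR adjusted p = 0.127). Leaving out KO replicate 2, its highest library, gave 0.84.

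Of 7 measured STAT4 targets 6 were below 0 and 1 above, with a median of -1.03. edgeR called 0 and, at an unadjusted p under 0.05, counted 0 higher and 2 lower. Calls by DESeq2 were 2 lower, and by limma voom 1 lower. Il12rb2, the second chain of the IL-12 receptor, stood at 11.5, 10.7 and 7.57 CPM in KO replicates 1 to 3, against 30.0, 17.6, 19.5 and 13.9 CPM in WT replicates 1 to 4. Its libraries did not overlap (log2 -1.03 ± 0.322, SE; edgeR adjusted p = 0.155), but it shares 1519 exon bases with Serbp1 on the opposite strand, so its level is uncertain. Tbx21, which encodes the effector factor T-bet, stood at 189, 167 and 392 CPM in KO, against 670.3, 602, 639 and 537 CPM in WT, again without overlap (log2 -1.29 ± 0.307, SE; edgeR adjusted p = 0.0942). Without KO replicate 3, its highest KO library, edgeR called Tbx21 lower (log2 -1.78, adjusted p = 0.0425). That library lay nearest to WT, so leaving it out widens the gap by itself and the call adds no support.

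Of 8 STAT3 targets 6 were above 0 and 2 below, with a median of 0.90. edgeR called 0 and, at an unadjusted p under 0.05, counted 4 higher and 1 lower. Calls by DESeq2 were 3 higher and 1 lower, and by limma voom 2 and 1. The lower gene was Prdm1 each time (log2 -0.93, edgeR adjusted p = 0.128), with every KO library below WT. Bcl3, a partner of NF-kB p50 and p52, stood at 94.5, 80.6 and 53.4 CPM in KO replicates 1 to 3, against 25.5, 24.8, 25.6 and 37.4 CPM in WT replicates 1 to 4. Its libraries were apart (log2 1.43 ± 0.241, SE; adjusted p = 0.0651 in edgeR and 7.54e-06 in DESeq2). Il4ra, a receptor chain for IL-4, stood at 217, 194 and 136 CPM in KO, against 97.5, 85.7, 97.4 and 99.2 CPM in WT (log2 0.94 ± 0.17, SE; edgeR adjusted p = 0.0661). Bcl3 and Il4ra were both called higher by edgeR when KO replicate 3 was left out (adjusted p = 0.0434 for Bcl3 and 0.0425 for Il4ra). Without WT replicate 4 edgeR called Bcl3 higher (adjusted p = 0.0443). KO replicate 3 was the lowest KO library of both genes, and WT replicate 4 the highest WT library of Bcl3. Leaving out such a library widens the gap by itself, so these calls add no support. The lists of targets overlap with other roles, and the lower V beta share and higher B cell and myeloid sums of the KO libraries stand beside all 3 lists. Their part in these differences was not tested.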

How the data were processed

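RNA of 3 ACLY KO and 4 WT libraries of CD8 T cells was sequenced. The submitters' processing notes name Trim Galore 0.6.0, STAR 2.7.8, DESeq2 and the build mm10. The sources used here do not say how reads were counted, on which annotation or strand, or with what filter. The authors deposited raw counts of 16156 genes and a table of log2 CPM, which supplied the symbols. The log2 values equalled those recomputed here (edgeR, TMM scaling, prior count 2) within 4.99e-09.

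KO was set against WT in edgeR 4.0.16 under R 4.3.3, by the quasi-likelihood test on TMM-scaled counts with no term but genotype. filterByExpr removed 0 genes. P-values were adjusted by Benjamini-Hochberg over all genes, and 0.05 was the threshold. CPM values are counts scaled with TMM. Standard errors and 95% intervals came from the same fit. Alternatives were DESeq2 1.42.0, limma voom (limma 3.58.1) with quality weights, 2 other scalings, no filter, a minimum mean count of 10, a block for the replicate number, each library left out, and KO replicate 1 and WT replicate 4 left out together. The ratio to summed T cell markers was added after the data were seen. The scripts were tested on counts simulated at the observed spread, with 100 genes changed 2-fold and 100 changed 4-fold. edgeR recovered 4 and 42 of them with 1 false call, and limma voom 4 and 40 with 2. DESeq2 recovered 42 and 70 with 77 false calls. A gene that edgeR did not call is therefore not shown to be unchanged, and DESeq2 calls need caution.

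The 10 genes, the lists and the alternatives were chosen with earlier results of these data known. The rule for named genes took the 10 genes, Acly, in each other list the 2 genes with the smallest unadjusted p, in each marker list the 2 with the highest mean CPM, and the 3 nearest profiles for the most variable gene of each role; Il6ra, Il2rb, Il2rg and Il2ra were added after their values were seen. Marker lists were reported as sums. A further gene of the pathway is not reported here. Coordinates, exon lengths and overlaps came from GENCODE M21 and promoter windows from RefSeq on GRCm38.p6. Exon lengths join all annotated transcripts. Counts of the 10 genes ran from 54 (Socs2 in WT replicate 2) to 256810 (Jak1 in WT replicate 1), so counting error was small beside the spread between libraries for most of them. Replicate numbers showed no clear pairing: deviations from the group means of same-numbered libraries correlated at -0.185, -0.0444 and 0.243. Over all combinations of a KO and a WT library the values ran from -0.217 to 0.243. So few libraries cannot show whether equal numbers were handled together.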

Additional observations from a re-analysis of the deposited data

Results flagged for a closer look

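In 51 groups of 4 WT values (the named genes and the marker sums) 12 had 1 library far from the other 3, by the share of the range that lies between that library and its nearest neighbour. Chance gives about 1 in 20 groups, and the values below are not independent, since the same libraries recur.

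Socs3 is the only one of the 10 pathway genes among them, with a share of 0.879: its value of 101 CPM in WT replicate 3 stands apart from 49.4 to 55.5 CPM in the other WT libraries. Without it the log2 difference of KO minus WT was 1.91 (edgeR adjusted p = 0.169). Of the other pathway genes, Bcl3 had a share of 0.935, with WT replicate 4 at 37.4 CPM against 24.8 to 25.6 CPM, and Il4ra 0.864, with WT replicate 2 at 85.7 CPM against 97.4 to 99.2 CPM.

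WT replicate 2 was far from the others in Lyz2 (0.921, at 7.52 CPM), in Hba-a1 (0.904, at 76.3 CPM), in Hbb-bt (0.89, at 53.2 CPM) and in the summed red cell markers (0.904, at 178 CPM). WT replicate 4 was far from the others in Top2a (0.994, at 528 CPM), in the summed cell cycle markers (0.98, at 2167 CPM), in the summed CD4 T cell markers (0.855, at 9.29 CPM), in Zbtb7b (0.832, at 7.29 CPM) and in the summed NK cell markers (0.837, at 37.8 CPM).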

How the results depend on the processing

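edgeR called 0 genes higher and 0 lower, 0 of the 10 pathway genes and 0 of the other listed pathway genes, with both other scalings, with no filter, with a mean count of 10 or more and with the replicate block. DESeq2 called 1032 genes higher and 520 lower, with 2 of the 10 genes higher and 10 higher and 7 lower among the other listed genes. limma voom called 860 higher and 272 lower, with 2 of the 10 higher and 10 higher and 5 lower among the others. Without both KO replicate 1 and WT replicate 4 edgeR called 864 higher and 668 lower, with 2 of the 10 higher and 11 higher and 4 lower among the others. With 1 library left out the counts ran from 0 to 142 genes higher and 0 to 48 lower, 0 to 1 of the 10 higher and 0 to 0 lower, and 0 to 5 higher and 0 to 2 lower among the others. The cause of these shifts was not tested.

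Socs1, Socs2, Socs3, Stat4 and Jak1 kept their direction in all 15 alternatives listed in the methods. These are not 15 separate checks. The fit with no filter equals the main fit, since filterByExpr removed 0 genes. DESeq2 and median-of-ratios scaling gave nearly equal estimates. Signs turned for the following values. Jak3 stood at 0.016 with median-of-ratios scaling and with DESeq2 and 0.056 with upper-quartile scaling, where Stat5b stood at 0.0065, 0.0065 and 0.042. With limma voom Stat3 was at -0.090 and Stat5a at -0.0068. With the replicate block Stat3 was at -0.093. Without both KO replicate 1 and WT replicate 4 Stat3 was at -0.042, Stat5b at 0.065 and Cish at -0.24. With 1 library left out Jak3 ran from -0.14 to 0.093, Stat3 from -0.10 to 0.13, Stat5a from -0.15 to 0.20, Stat5b from -0.16 to 0.12 and Cish from -0.05 to 0.64. Per summed T cell marker CPM, Jak1 stood at 0.19, Jak3 at 0.55, Stat5b at 0.52, Tyk2 at 0.045, Jak2 at 0.25, Socs6 at 0.15, Ptpn2 at 0.15 and Il2rg at 0.14, a scaling that adds 0.55 to every gene's difference of mean log2 CPM. With the replicate block Socs1 and Socs3 kept their sign, at 1.07 (edgeR adjusted p = 0.233) and 1.5 (edgeR adjusted p = 0.229). The block changed no call among the 10 genes, and the replicate numbers showed no clear pairing of the libraries.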

Other observations

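Several listed pathway genes outside the naming rule were picked after their values were seen. Ifngr2, the signalling chain of the interferon gamma receptor, stood at 92.4, 45.0 and 23.1 CPM in KO replicates 1 to 3, against 0.372, 0.561, 0.326 and 3.81 CPM in WT replicates 1 to 4. All KO libraries lay far above WT. They ran in the same order as their summed B cell markers (5278, 168 and 81.5 CPM) and red cell markers (19252, 2746 and 95.9 CPM). Socs2 and Socs5 shared this order, and the myeloid sums (1085, 48.1 and 506 CPM) did not. The part of these cells in the Ifngr2 difference was not tested. The log2 difference was 5.39 ± 1.06 (SE; adjusted p = 0.071 in edgeR and 2.57e-08 in DESeq2). Ifngr1, the ligand-binding chain of the same receptor, had the opposite sign, at 312, 370 and 493 CPM in KO and 557, 543, 593 and 536 CPM in WT (log2 -0.51 ± 0.176, SE; edgeR adjusted p = 0.186).

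Of genes tied to effector cells, Prdm1, which encodes Blimp-1, stood at 26.3, 16.9 and 36.8 CPM in KO, against 55.0, 52.2, 51.5 and 44.9 CPM in WT, without overlap (log2 -0.93 ± 0.261, SE; adjusted p = 0.128 in edgeR and 0.0196 in DESeq2). Gzmb, which encodes granzyme B, stood at 72.6, 52.0 and 159 CPM in KO, against 264, 305, 246 and 156 CPM in WT, where KO replicate 3 and WT replicate 4 overlapped (log2 -1.36 ± 0.412, SE; adjusted p = 0.147 in edgeR and 0.0152 in DESeq2). Fos, an immediate early gene, stood at 31.5, 671 and 662 CPM in KO, against 218, 134, 373 and 272 CPM in WT. Its KO libraries lay on both sides of all WT libraries, with KO replicate 1 lowest, as for Socs1 and Socs3 among the KO libraries.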
